A study of Mus musculus with 20 samples.

Results

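Part of the probes on the array used here are named by a stretch of the mouse genome instead of a gene. They were taken to cover intervals outside annotated genes that were thought to be transcribed into long noncoding RNA, and are called noncoding probes below. No annotation was used here, so neither point was checked. Each interval has probes on the forward (F) or reverse (R) strand or on both. All probes that are not control spots and whose systematic name is a genome position were taken, without those on the sex chromosomes. This gave 15617 of 55681 probes (28.0%), which lie on 3390 intervals and make up 4432 regions, a region being an interval on one strand, of 4610 such regions on the array. The 178 left out, with 577 probes, are on the X chromosome.

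Long intergenic noncoding RNAs are transcripts that lie between protein-coding genes and are not translated. Many are made by RNA polymerase II and are spliced and polyadenylated like messenger RNAs, but most are present at lower levels and in fewer cell types, and brain holds a large share of those known. Some act in the nucleus on chromatin or on neighbouring genes, and for most of them no role is known. Transcription from both strands of one interval is common around promoters and enhancers, and part of the intervals here carry probes for both.

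The 20 arrays are one-colour Agilent arrays of brain RNA from 4 groups of 5 male mice, each mouse with its own identifier in the labels. The mice had a C57BL/6J background and carried the doxycycline-controlled system for the HIV-1 protein Tat, in which a GFAP promoter, active in astrocytes, drives the protein that answers to doxycycline. Tat+ mice also carried the tetracycline-responsive Tat transgene (Tat86), and the Tat- controls did not. All mice received daily doxycycline at 100 mg/kg for 7 days. From the day after the first dose they were also injected daily for 7 days, either with methamphetamine (Meth) at 2 mg/kg or with 0.9% saline. Mice without Tat are written Tat-/Meth where they had the drug (Tat-Meth+ in the labels) and Tat-/Sal where they had saline (Tat-Meth-). Their Tat-carrying counterparts are Tat+/Meth (Tat+Meth+) and Tat+/Sal (Tat+Meth-). By the labels the mice were 6 to 7 weeks old and the left hemisphere was taken 24 h after the last injection. The study's methods give caudate putamen from mice of 3 to 5 months, taken 1 h after a Meth challenge of 1 mg/kg that followed 7 days without the drug. Both descriptions cannot hold, and neither was chosen here. Of 9 striatal neuron markers with a probe, 9 were well above background on all 20 arrays, with means of 11.24 to 18.2 log2 units, against 1 of 3 cortical markers and 0 of 2 hippocampal markers.

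The lie of the arrays on the glass slides limits what can be said of one group. All 5 Tat-/Meth arrays were on slide 1, the 5 Tat-/Sal arrays and Tat+/Meth replicates 1 to 3 on slide 2, and Tat+/Meth replicates 4 and 5 with the 5 Tat+/Sal arrays on slide 3. The bright-corner control spots read 14.66 to 15.06 log2 units on slide 1, 17.08 to 17.3 on slide 2 and 16.8 to 17.42 on slide 3. A difference between Tat-/Meth and any other group therefore cannot be told apart from a difference between slide 1 and the other slides. Tat-/Meth replicate 5 also stands apart, in its dim probes, and counts are given without it where it moves them.

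The regions were of very unequal size. Interval lengths ran from 62 to 7128487 bases with a median of 7451 and quartiles of 794 and 21810 bases, and 1 interval was over 1 Mb. Of the regions, 1727 carried 3 probes, 957 carried 5 and 660 only 1, and none more than 10. The probes divided evenly between the strands, with 7890 on F and 7714 on R, and 13 probes on 3 intervals had no strand suffix. Intervals often overlapped or lay close together. Of the 3390, 2015 overlapped another, up to 14 in a stretch, and all together formed 2126 separate stretches. For 2734 another lay within 100 kb, and up to 15 chained into a stretch at that distance. Neighbouring intervals, and probes of one region, are therefore not independent measurements of separate transcripts.

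Signals are log2 values of the scanner's processed signal after each array was scaled to the same 75th percentile over all probes, and a spot counts as detected where the scanner software called it well above background. The share of the noncoding probes detected was 35.1 to 59.1% per array, while 70.4 to 79.9% of probes with a gene symbol were detected on the same arrays. The median array had 47.8% in Tat-/Sal and 37.4% in Tat-/Meth, and with Tat 39.0% after saline and 42.2% after Meth, and the ranges of the 4 groups overlapped. The highest value, 59.1%, belonged to Tat-/Meth replicate 5, where the other 4 arrays of that group read 35.6, 35.7, 37.4 and 40.4%. The median signal over the noncoding probes was likewise 6.42 on that array and 3.99 to 4.16 on the other 4. The median of gene-symbol probes moved far less, at 8.78 on that array against 8.66 to 8.69. The lower quartile was raised there in both sets. It was 5.24 against 2.46 to 3.07 in noncoding probes and 6.5 against 4.7 to 4.84 in gene-symbol probes.

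**Figure D1:**
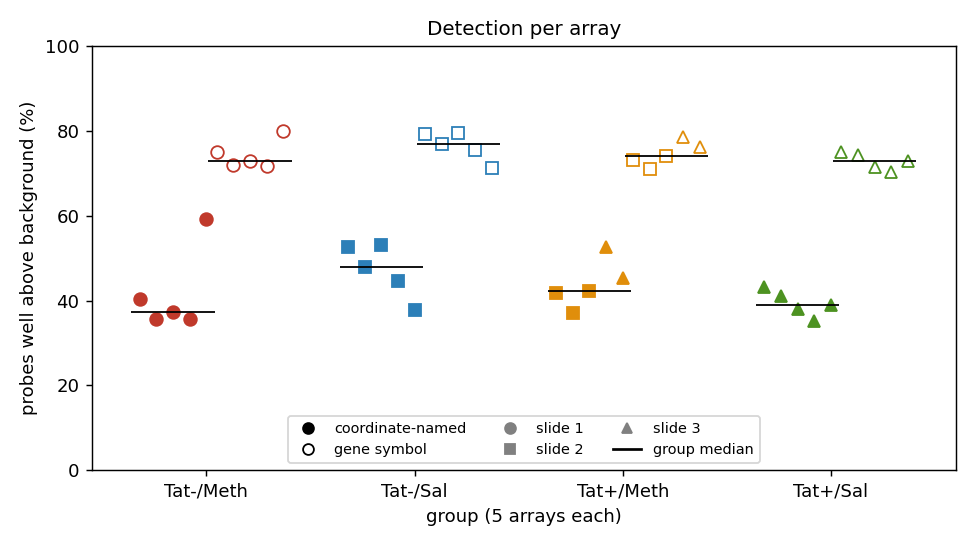
Percent of probes well above background on each of the 20 arrays, by group, for the noncoding probes and for probes with a gene symbol. Each point is 1 array. The noncoding probes lie at 35.1 to 59.1% and the gene-symbol probes at 70.4 to 79.9%, and Tat-/Meth replicate 5 is the highest array of both sets.

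Few of the noncoding probes were detected everywhere. Of the 15617, 4091 (26.2%) were detected on all 20 arrays, 8627 (55.2%) on some and 2899 (18.6%) on none, whereas 66.1% of gene-symbol probes were detected on all 20. Of those detected on some arrays, 2796 were detected on exactly 1, and for 1616 of these (57.8%) that array was Tat-/Meth replicate 5. Among gene-symbol probes detected on exactly 1 array it was the same array for 48.9%. Counted by region, 2164 of 4432 (48.8%) had at least 1 probe detected on all arrays and 176 (3.97%) had no detected spot at all. These are limits of the signal: a region with no detected spot was not well above background here, which does not show that it is silent.

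Probes of one region often gave very different signals. Among the 3261 regions with at least 3 probes, every probe was detected on all arrays in 286, some but not every probe in 1453 and none in 1522. The means of the probes of such a region spread over a median of 2.67 log2 units. Where all probes were detected on all arrays the median spread was still 1.58 and the largest 7.86. Probes hybridise with different strength and may lie on different exons or outside the transcript, so these are differences in signal, not in abundance.

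The brightest probes give an idea of what was robustly measured. The probe with the highest mean, 17.88, lay in chr6:83368261-83407280 on F (coordinates are of mouse build mm9 throughout, as the files give them). Its Tat-/Meth arrays read 16.54, 17.22, 16.9, 16.77 and 16.98, and its Tat-/Sal arrays 17.89, 17.97, 18.12, 17.92 and 18.25. The Tat-/Meth arrays were all below the other 15, whose lowest value was 17.89. Next came chr14:78924115-78938125 (F) at a mean of 17.63, with 17.38 to 17.55 in Tat-/Meth and 17.41 to 17.76 in Tat-/Sal, which overlap. The R probe of chr7:108209996-108216032 had a mean of 17.42 and that of chr12:73838608-73862621 one of 17.37. chr17:39982023-39983277 (F), at 17.61, read 16.66 to 16.89 in Tat-/Meth and 17.7 to 17.97 in Tat-/Sal without overlap. Of the 8 brightest, 2 probes, at 17.32 and 17.05, lay in the same region, chr17:17481706-17482457 (R), and the last, at 17.15, in chr6:116092274-116144199 (F). In that last region the bright probe changed by -0.06 in Tat-/Meth against Tat-/Sal while 2 dimmer ones changed by -2.44 and -2.17, and in the first region all 3 tested probes were lower, the other 2 at -1.72 and -1.19. Of the 8 brightest probes only those on chr6:83368261-83407280 and chr17:39982023-39983277 were called in any comparison described below.

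For calls between groups a probe had to reach a mean of 6 log2 units in at least 1 group. This kept 5703 noncoding probes (36.5%) on 2806 regions and left out 9914, and 31516 probes of all kinds were tested together with limma. A probe is called where its Benjamini-Hochberg adjusted p over all 31516 was below 0.05 and the change above 2-fold. Arrays of one group differed more in these probes than in gene-symbol probes: the median within-group SD was 0.301 log2 units for Tat-/Meth and 0.214 to 0.241 for the other groups, against 0.129 to 0.15 for gene-symbol probes. The p-values rest on 5 mice per group.

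Meth in mice without Tat went with a lower signal of many noncoding probes. In Tat-/Meth against Tat-/Sal, 1451 of 5703 noncoding probes (25.4%) were called, where 11.6% of all tested probes were. Of these 1370 (24.0%) were lower, against 10.9% of all probes, and 81 (1.42%) were higher, against 0.708%. Among gene-symbol probes 5.61% were called lower. The median log2 change over the noncoding probes was -0.13, and over all tested probes 0.1. The sign of the former depends on the processing: it was 0.23 without a filter (0.19 over all probes), 0.03 with normexp and quantile normalization, 0.01 with median scaling and -0.6 unscaled. In bulk tissue, fewer cells of a type and less RNA per cell cannot be told apart, and here slide 1 cannot be told apart from the group either. Without Tat-/Meth replicate 5 there were 1568 lower and 48 higher calls, where 12.8% of all tested probes were called in either direction. Without replicate 1 of that group there were 1280 and 143, where 11.4% of all tested probes were. The number of rises thus moves by more than 1.5 times with either array.

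By adjusted p alone, with no limit on the fold, 2135 noncoding probes (37.4%) were lower and 945 (16.6%) higher. Of all probes 22.2% were lower and 28.1% higher by that rule. By that rule rises outnumbered falls over all probes, and falls outnumbered rises among the noncoding probes.

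The falls were of all sizes and were spread over the genome. The 1370 probes called lower lay in 1123 regions, their median fitted log2 change was -1.62, and by the fitted values 417 fell more than 4-fold and 33 more than 16-fold. On all 5 Tat-/Sal arrays 1324 of them were detected. In Tat-/Meth 717 were still detected on all 5 arrays and 193 on none, and for the latter the fitted size is not a measured one. By chromosome the share called lower ran from 18.4% of tested noncoding probes on chromosome 14 to 35.5% on chromosome 15. By interval length it was 26.1% for intervals of up to 794 bases, 19.3% up to 7439, 25.6% up to 21801 and 24.9% above that, with no steady trend.

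**Figure D2:**
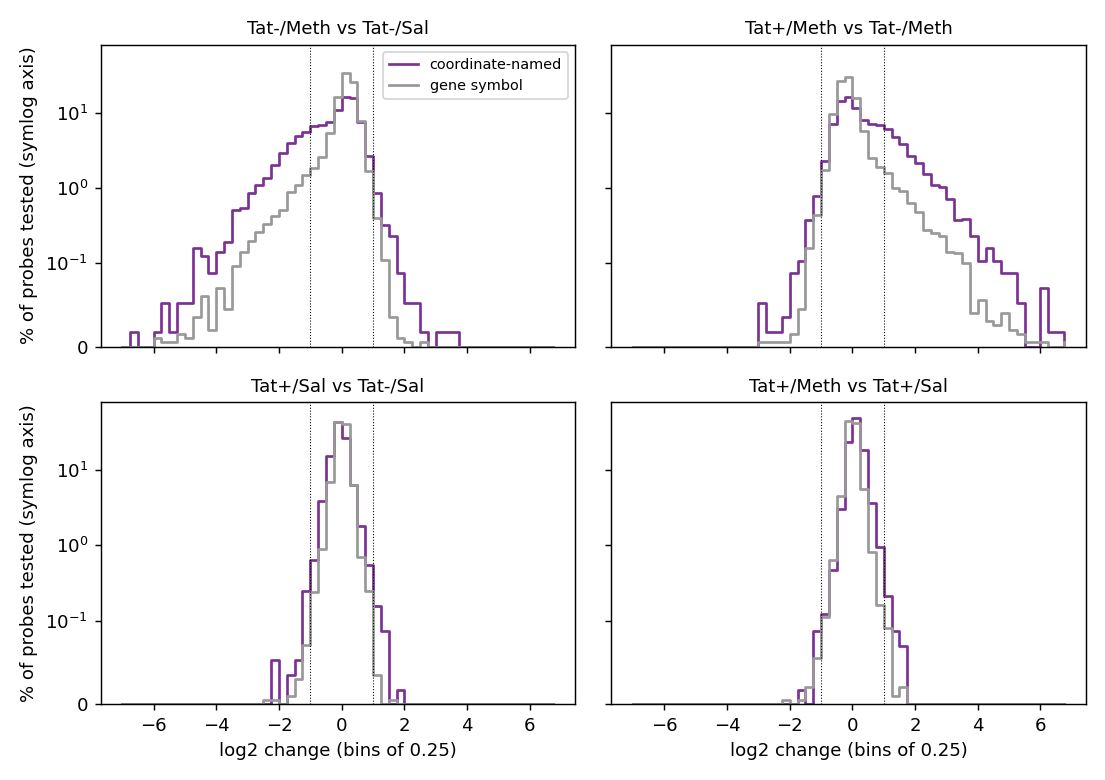
Distribution of the log2 change in 4 comparisons (panels), over tested noncoding probes (purple) and tested gene-symbol probes (grey), as percent of each set per bin of 0.25 log2 units on an axis that is logarithmic above 0.1%; dotted lines mark a change of 2-fold. In Tat-/Meth against Tat-/Sal a larger share of the noncoding probes than of the gene-symbol probes lies in the tail of falls. The lowest value, -6.68, is a fitted one below background and has no exact size. In both comparisons without Tat-/Meth most of both sets lie between the dotted lines.

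The excess of falls was not limited to dim probes. Among probes with a Tat-/Sal mean above 12 log2 units, 35.6% of 354 noncoding probes and 5.12% of 7244 other probes were called lower. At 10 to 12 units the shares were 24.8 and 4.57%, at 8 to 10 units 23.9 and 8.17%, at 7 to 8 units 24.3 and 12.2% and at 6 to 7 units 25.8 and 16.9%. In the lowest range, up to 6 units, they were 9.16 and 7.1%. A probe in that range was tested only where another group reached the signal limit, so these shares are not free of that filter. Among probes detected on all 20 arrays, 714 of 4090 noncoding probes (17.5%) and 677 of 18291 gene-symbol probes (3.70%) were called lower. These shares are descriptions, since probes of one region and neighbouring regions are not independent.

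**Figure D3:**
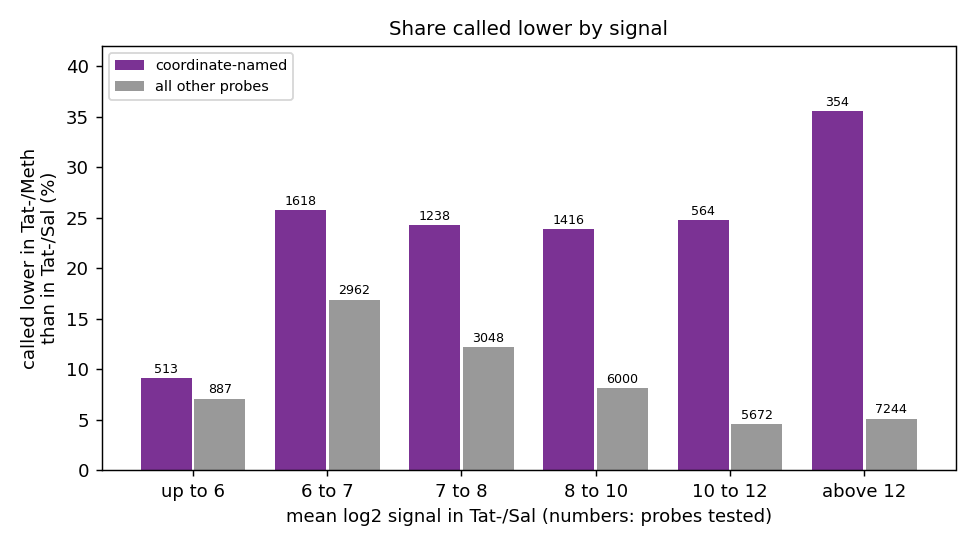
Percent of tested probes called lower in Tat-/Meth against Tat-/Sal, by range of the Tat-/Sal mean in log2 units, for noncoding probes and for all other probes. In other probes the share declines from 16.9% at 6 to 7 units to 5.12% above 12, and in noncoding probes it is 23.9 to 25.8% from 6 to 12 units and 35.6% above 12.

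The probe with the lowest fitted change, whose size is only bounded, lay in chr4:128727332-128735227 on F, an interval of 7896 bases with 10 probes on that strand. Its Tat-/Sal signals were 9.97, 9.87, 9.21, 9.55 and 9.94, and its Tat-/Meth signals 2.36, 2.98, 2.93, 2.98 and 3.88. The Tat+/Meth arrays read 9.69, 9.52, 9.81, 9.71 and 9.34 and the Tat+/Sal arrays 8.52, 9.21, 9.01, 9.28 and 8.85. All 5 Tat-/Meth arrays were thus far below the 15 others and were not well above background. The signal was at least 21.7-fold lower than in Tat-/Sal, counting Tat-/Meth at the lowest signal that was well above background on each array (limma adjusted p = 2.4e-13, n = 5 per group). The fitted log2 change of -6.68 lies below background and gives no size beyond that bound, so this probe is not ranked against the measured falls that follow. The other 3 tested probes of the same region had changes of -0.72 to 0.10 and were not called.

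Several bright probes fell to an intermediate level that was itself well measured. In chr19:9060613-9060851 (F), 239 bases long, the Tat-/Sal arrays read 14.8, 14.92, 14.78, 14.85 and 14.9 and the Tat-/Meth arrays 8.89, 9.2, 8.99, 8.8 and 8.99. The Tat+/Meth arrays read 14.87, 14.97, 14.82, 15.36 and 15.02 and the Tat+/Sal arrays 14.9, 14.77, 14.71, 15.89 and 15.47, so that no array outside Tat-/Meth came near its 5. The change was -5.88 ± 0.17 (SE, n = 5 per group, limma adjusted p = 7.67e-14), or 58.7-fold, and a second tested probe of the region fell by 1.08.

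The probe in chr14:28231577-28242027 (F) read 14.19, 13.7, 14.1, 14.04 and 14.16 in Tat-/Sal and 8.4, 8.14, 8.31, 8.28 and 8.47 in Tat-/Meth. Its change was -5.72 ± 0.24 (SE, n = 5 per group, limma adjusted p = 3.82e-12). In Tat+/Sal it read 14.31, 13.97, 14.21, 15.53 and 15.02, with replicate 4 the highest of all 20 arrays. The 6 other probes of the region stayed under the signal limit in every group.

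The same shape returned in the remaining probes of the 6 lowest fitted changes without overlap between the groups. In chr2:33500594-33501874 (F) the Tat-/Sal signals were 13.26, 12.98, 13.2, 12.73 and 13.02 and the Tat-/Meth signals 7.41, 7.6, 7.24, 7.24 and 7.32, a change of -5.68. In chr2:132079092-132087069 (R) they were 13.54, 12.01, 13.23, 12.11 and 12.2 against 7.06, 7.09, 7.22, 6.92 and 6.95, a change of -5.57. In that probe the Tat+/Sal replicate 2 spot carried an outlier mark and was left out of the fit.

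In chr13:34821764-34822230 (R) the Tat-/Sal signals were 12.54, 11.46, 11.89, 11.74 and 12.38 and the Tat-/Meth signals 6.74, 6.87, 6.44, 6.44 and 7.23, a change of -5.26. None of these 3 regions had another tested probe, and in all of them the 5 Tat-/Meth arrays were below the 5 Tat-/Sal arrays by more than 4 log2 units. The limma adjusted p-values of the 3 changes lay between 3.7e-11 and 2.25e-08 (n = 5 per group).

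The arrays outside Tat-/Meth were not uniform for these probes. Of the 33 that fell more than 16-fold, 20 (60.6%) had their highest value of the 15 other arrays in Tat+/Sal replicate 4. Of all 1370 called lower that array was highest for 316 (23.1%), and of the 5703 tested for 595 (10.4%). What sets that array apart was not tested.

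**Figure D4:**
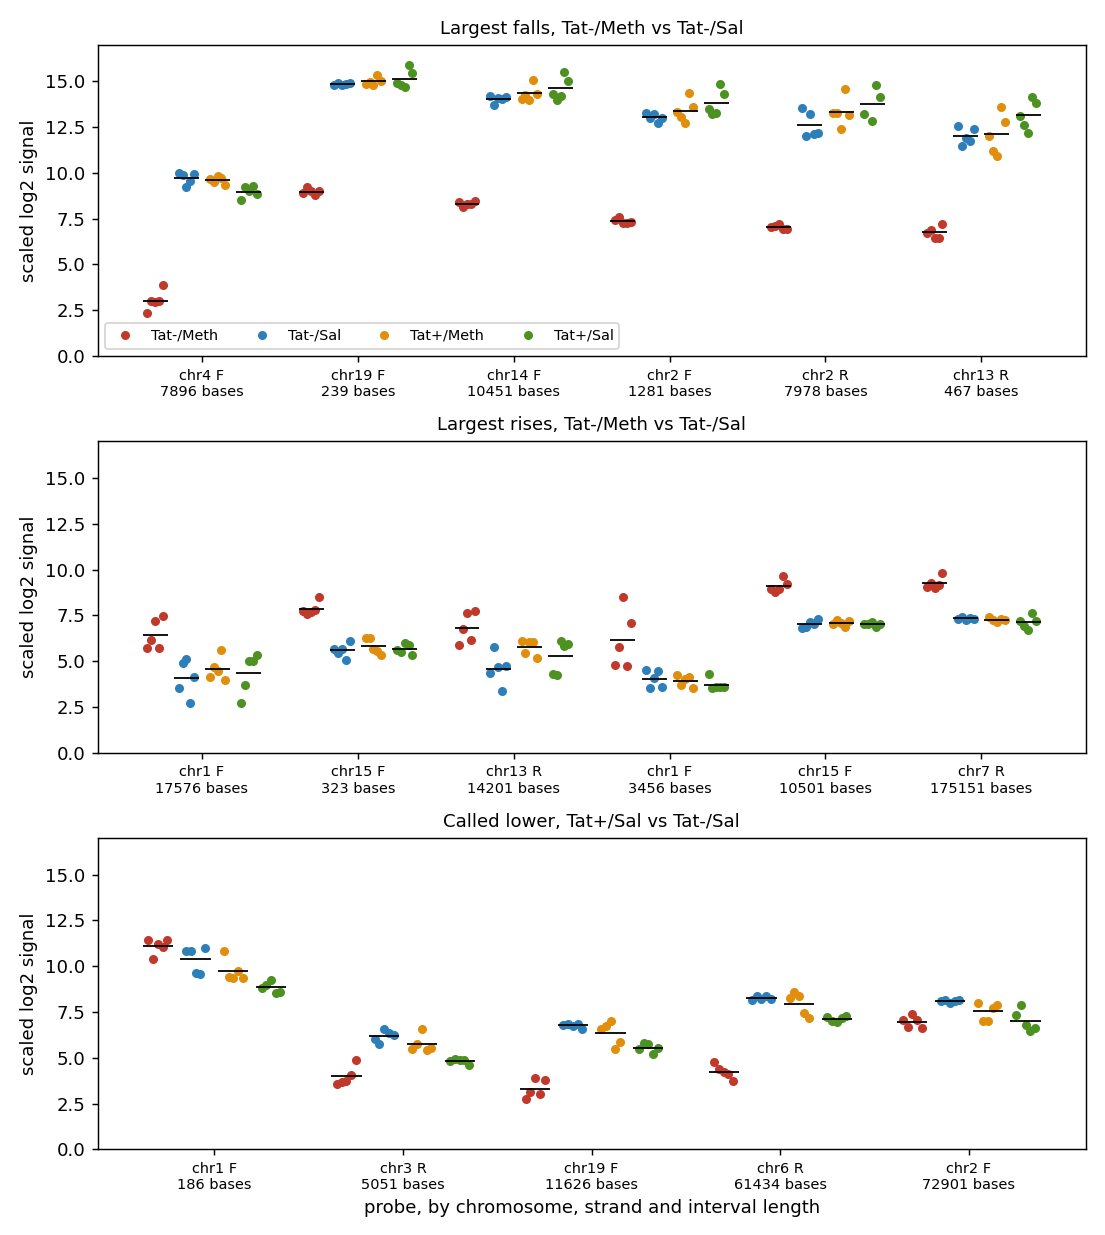
Scaled log2 signal of each array (points, with group means as bars) for the probes with the 6 largest fitted falls and 6 largest fitted rises in Tat-/Meth against Tat-/Sal among those whose groups do not overlap, and the 5 probes called lower in Tat+/Sal against Tat-/Sal, by chromosome, strand and interval length. In the top panel the 5 Tat-/Meth points lie below all points of the other groups, and in the bottom panel every Tat-/Sal point lies above the Tat+/Sal points of its probe.

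Rises in Tat-/Meth were fewer and smaller. The 81 probes called higher lay in 78 regions, 39 were detected on all 5 Tat-/Sal arrays and 3 on none. In chr15:101084597-101095097 (F) the Tat-/Sal arrays read 6.79, 6.88, 7.14, 7.02 and 7.3 and the Tat-/Meth arrays 8.93, 8.75, 8.95, 9.64 and 9.22. The Tat+/Meth arrays read 6.85 to 7.27 and the Tat+/Sal arrays 6.86 to 7.13, so Tat-/Meth stood alone. The change was 2.07 ± 0.14 (SE, n = 5 per group, limma adjusted p = 7.82e-10), while another probe of the same region was called in the other direction at -2.13.

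In chr15:100908323-100908645 (F) the Tat-/Sal arrays read 5.64, 5.46, 5.66, 5.08 and 6.12 and the Tat-/Meth arrays 7.76, 7.58, 7.7, 7.77 and 8.51, a rise of 2.27, and again another probe of that region was called lower, at -1.05. In chr7:91558475-91733625 (R) they read 7.29, 7.41, 7.25, 7.37 and 7.31 against 9.05, 9.25, 9.0, 9.15 and 9.8, a rise of 1.93. In both, all 5 Tat-/Meth arrays were above all 15 others. The limma adjusted p-values were 1.05e-07 and 6.04e-09 (n = 5 per group). The chr15 probe passed the signal limit only through Tat-/Meth, at a mean of 7.86 against 5.59 to 5.81 in the other groups. Its p-value is therefore not free of that selection.

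The other 3 of the 6 largest rises among probes whose groups do not overlap were near background. All 3 reached the signal limit in Tat-/Meth alone, so their calls are not free of that selection. In chr1:134867906-134885481 (F) Tat-/Meth read 5.69 to 7.48 and Tat-/Sal 2.7 to 5.09, a change of 2.37, and only 2 of 5 Tat-/Sal spots were detected. In chr13:61837025-61851225 (R) the ranges were 5.87 to 7.72 and 3.34 to 5.77, a change of 2.25. In chr1:92177032-92180487 (F) no Tat-/Sal spot was detected and the rise was at least 2.99-fold, with Tat-/Meth at 4.77, 5.79, 8.51, 4.73 and 7.08. The highest values of that group came from replicates 3 and 5, and only 3 of its 5 spots were well above background.

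Between the Meth groups, noncoding probes were more often called higher than lower with Tat. In Tat+/Meth against Tat-/Meth, 1494 of 5703 noncoding probes (26.2%) were called, where 12% of all tested probes were. Of these 1420 were higher, against 11.3% of all probes, and 74 lower, against 0.711%. By adjusted p alone 2234 were higher, against 23.2% of all probes, and 926 lower, against 30.3%. Without Tat-/Meth replicate 5 the calls were 1637 higher and 47 lower, and without replicate 1 they were 1324 and 125. Of all tested probes 13.5 and 11.6% were then called in either direction.

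Both this comparison and the one before use the Tat-/Meth arrays, so their results are not independent. Of the 6 largest rises without overlap between the groups, 5 were in probes already described. The other is chr9:41488229-41545481 (R), with Tat-/Meth at 6.57, 7.01, 7.25, 6.92 and 6.78 and Tat+/Meth at 13.22, 12.75, 12.14, 14.03 and 12.86. The groups were about 5 log2 units apart at their nearest, and the difference was 6.09 ± 0.43 (SE, n = 5 per group, limma adjusted p = 3.78e-09). One Tat-/Sal spot of that probe was left out of the fit as an outlier.

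Among probes whose groups do not overlap, the lowest fitted change in Tat+/Meth against Tat-/Meth was in chr9:24292762-24307658 (R), a region with 1 probe. Tat-/Meth read 5.69, 5.52, 5.92, 5.91 and 7.72 and Tat+/Meth 3.15, 3.41, 2.96, 2.82 and 4.27. No Tat+/Meth spot was well above background, so the signal is only known to be at least 1.99-fold lower (limma adjusted p = 2.7e-05, n = 5 per group). That fall is therefore not ranked against the measured 4.17-fold of chr15:100908323-100908645 (F). Tat-/Sal, at 3.0 to 5.52, reached the Tat-/Meth range. This probe passed the signal limit only through Tat-/Meth, at a mean of 6.15, so its p-value is not free of that selection.

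The difference of differences asks whether Meth changed a probe otherwise in Tat+ than in Tat- mice. It was called for 1498 noncoding probes, where 12.4% of all tested probes were called. Of these 1441 had a higher value in Tat+, against 11.7% of all probes, and 57 a lower one, against 0.749%. In chr19:9060613-9060851 (F), detected on all 20 arrays, it was 5.74 ± 0.25 (SE, limma adjusted p = 3.17e-11, n = 5 per group), from a Meth change of -5.88 without Tat and of -0.14 with Tat. The fitted 7.32 of chr4:128727332-128735227 (F) is higher, but it uses the Tat-/Meth signals that were not well above background and has no exact size. The lowest fitted value, -4.34 in chr11:22510175-22522025 (F), has none either, since no Tat-/Sal or Tat+/Meth spot and only 1 Tat+/Sal spot of that probe was well above background. Its Tat-/Meth arrays scattered from 2.53 to 9.27 and its Tat+/Sal replicate 3 read 7.74 against 2.9 to 3.52 on the other 4 arrays of its group. That probe passed the signal limit only through Tat-/Meth, at a mean of 6.04. The 57 negative calls became 36 without Tat-/Meth replicate 5 and 90 without replicate 1. Of all tested probes 14.2 and 11.8% were then called in either direction. This quantity too rests on slide 1, which held the whole Tat-/Meth group.

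The comparisons that leave out Tat-/Meth gave few calls. In Tat+/Meth against Tat+/Sal no noncoding probe was called (0% of all tested probes were), the smallest limma adjusted p was 0.209, and 547 (9.59%) had an unadjusted p below 0.05, against 11.9% of the other tested probes. In Tat+/Meth against Tat-/Sal none was called either, against 0.00317% of all probes, the smallest adjusted p being 0.778, and 321 (5.63%) had an unadjusted p below 0.05, against 6.46% of the others. The methods' t-test, without adjustment but with the 2-fold limit, called 6 and 9, where it called 0.102 and 0.0984% of all tested probes. Within slide 3, Tat+/Meth against Tat+/Sal gave 0 calls, and within slide 2 so did Tat+/Meth against Tat-/Sal, with 2 and 3 Tat+/Meth arrays. These counts do not show that Meth left the noncoding probes of Tat+ mice unchanged.

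For the probes that fell most in Tat-/Meth, the Meth change in Tat+ mice can be set beside it. It was 0.64 in chr4:128727332-128735227 (F), -0.14 in chr19:9060613-9060851 (F), -0.27 in chr14:28231577-28242027 (F) and -0.41 in chr2:33500594-33501874 (F). In chr13:34821764-34822230 (R) it was -1.07 ± 0.45 (SE, limma adjusted p = 0.375, n = 5 per group), where the Tat+/Meth arrays read 10.91 to 13.6 and the Tat+/Sal arrays 12.15 to 14.16. The ranges of Tat+/Meth and Tat+/Sal overlapped in all but the chr4 probe.

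Between the saline groups, 5 noncoding probes were lower with Tat and none was higher. In Tat+/Sal against Tat-/Sal 0.0444% of all tested probes were called, and 593 noncoding probes (10.4%) had an unadjusted p below 0.05, against 17.9% of the other tested probes. The largest of the 5 falls was in chr1:88398169-88398354 (F), an interval of 186 bases. Tat-/Sal read 10.81, 10.85, 9.65, 9.6 and 10.97 and Tat+/Sal 8.82, 8.99, 9.25, 8.54 and 8.6, without overlap, a change of -1.54 ± 0.32 (SE, n = 5 per group, limma adjusted p = 0.0449). Tat-/Meth read 10.37 to 11.44 there, above every Tat+/Sal array.

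In chr3:50934868-50939918 (R) Tat-/Sal read 6.05, 5.74, 6.57, 6.35 and 6.23 and Tat+/Sal 4.81, 4.93, 4.86, 4.9 and 4.6. No Tat+/Sal spot was well above background, so the fall was at least 1.86-fold (limma adjusted p = 0.0298, n = 5 per group). That probe reached the signal limit in Tat-/Sal alone, at a mean of 6.19, so its p-value is not free of that selection. In chr19:29969050-29980675 (F) the signals were 6.8, 6.87, 6.76, 6.85 and 6.55 against 5.46, 5.79, 5.78, 5.21 and 5.55, a change of -1.21. Neither region had another probe.

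In chr6:67155508-67216941 (R) they were 8.16, 8.37, 8.23, 8.37 and 8.2 against 7.2, 6.99, 6.94, 7.15 and 7.26, a change of -1.16, and 2 other tested probes of that region changed by -0.23 and 0.01. In chr2:177314875-177387775 (F) they were 8.09, 8.17, 7.99, 8.08 and 8.17 against 7.31, 7.9, 6.79, 6.46 and 6.62, a change of -1.08 with an adjusted p of 0.0498 by limma (n = 5 per group). Tat-/Sal was above Tat+/Sal on every array in all 5 probes.

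These 5 calls lay at the edge of the test. The saline groups lay on slides 2 and 3, and once the slide difference was estimated from the Tat+/Meth arrays, which lay on both, none of the 5 was called. The changes were then -1.22, -0.91, -0.11, -0.09 and -1.54 in the order given. In the chr6 and the chr19 probe the Tat+/Meth arrays themselves differed by slide, at 8.24 to 8.57 on slide 2 against 7.17 and 7.47 on slide 3, and at 6.58 to 6.99 against 5.48 and 5.88. No call was left without Tat-/Sal replicate 1, 2 or 4 or without Tat+/Sal replicate 4 or 5. There were 7 calls without Tat+/Sal replicate 1, where 0.076% of all tested probes were called.

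In Tat-/Meth against Tat-/Sal, probes of one region were called lower together more often than probes on opposite strands of one interval. For a noncoding probe called lower in Tat-/Meth against Tat-/Sal, 594 of 1671 other tested probes of its region (35.5%) were also called lower, against 1077 of 9645 (11.2%) for a probe that was not. For probes of one gene symbol the shares were 12.5 and 2.93%. On intervals with probes on both strands, 34.5% of the other probes on the same strand were called lower beside a called probe, whereas on the opposite strand it was 22.2%, and 24.5% beside a probe not called. Over 985 regions the log2 changes of the first pair of probes detected on all arrays had r = 0.275, over 357 intervals the changes of opposite strands had r = 0.0314, and over 3570 gene symbols r was 0.131. In Tat+/Sal against Tat-/Sal the 3 values were 0.113, 0.11 and 0.26. The points of each comparison share the same 10 arrays and are given as a description.

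Agreement within a region was far from complete. Of 806 regions with at least 3 tested probes, 541 had none called lower, 245 had some and 20 had all. Probes called in opposite directions were held by 19 of 1441 regions with at least 2 tested probes, the 2 chr15 regions above among them. For the 62 probes called higher with another tested probe in their region, 8 of 154 such other probes (5.19%) were also called higher. Beside a probe not called higher it was 1.31%. Only 5 of the 62 had another called higher.

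The region with most probes called lower was chr10:126818382-126856582 (F), with 5 of 7 tested. In its brightest probe Tat-/Sal had a mean of 14.88 ± 0.08 (SD, n = 5), Tat-/Meth 12.8 ± 0.18, Tat+/Meth 15.05 ± 0.15 and Tat+/Sal 15.05 ± 0.37. The 5 called probes changed by -1.82 to -2.2, with a mean of -2.03. The other 2 changed by -0.55 and -0.63, and in the latter Tat-/Meth replicate 5 read 9.66 while the other 4 arrays of its group read 3.92 to 5.05. Of the called probes, 4 had Tat-/Sal means of 13.81 to 14.88 and 1 of 7.35, and the probe that changed by -0.55 had one of 11.58 and was detected on all arrays.

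In chr13:112717680-112733330 (R) all 4 tested probes were called lower. The 3 detected in Tat-/Meth fell by 2.81 to 3.84 log2 units, and the other was on no Tat-/Meth array well above background. One of them read 12.06 to 12.67 with saline and 8.24 to 9.16 with Meth in mice lacking Tat, and in Tat mice 12.08 to 14.43 with saline and 12.46 to 13.8 with Meth. The Tat-/Meth range alone stood apart. In chr12:111287772-111333890 (F) 4 of 4 were called lower, of which 1 was well above background on all 5 Tat-/Meth arrays, with a change of -1.11, 2 on 1 array each and 1 on none. In chr5:125078875-125098525 (R) 4 of 5, with the fifth at -0.88. In chr15:79764481-79809909 (F) 4 of 7 tested probes were called higher in Tat+/Meth against Tat-/Meth, by a fitted 1.73 on average. Single changes were 1.81, 1.85, 1.49 and 1.76, with 5, 4, 1 and 0 detected Tat-/Meth spots in that order. The average thus rests in part on undetected spots and has no exact size. A probe of the region detected on all 20 arrays went the other way, at -0.68 (limma adjusted p = 9.49e-05, n = 5 per group). It was under 2-fold and not called, and the remaining probes changed by 0.86 and 0.42.

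**Figure D5:**
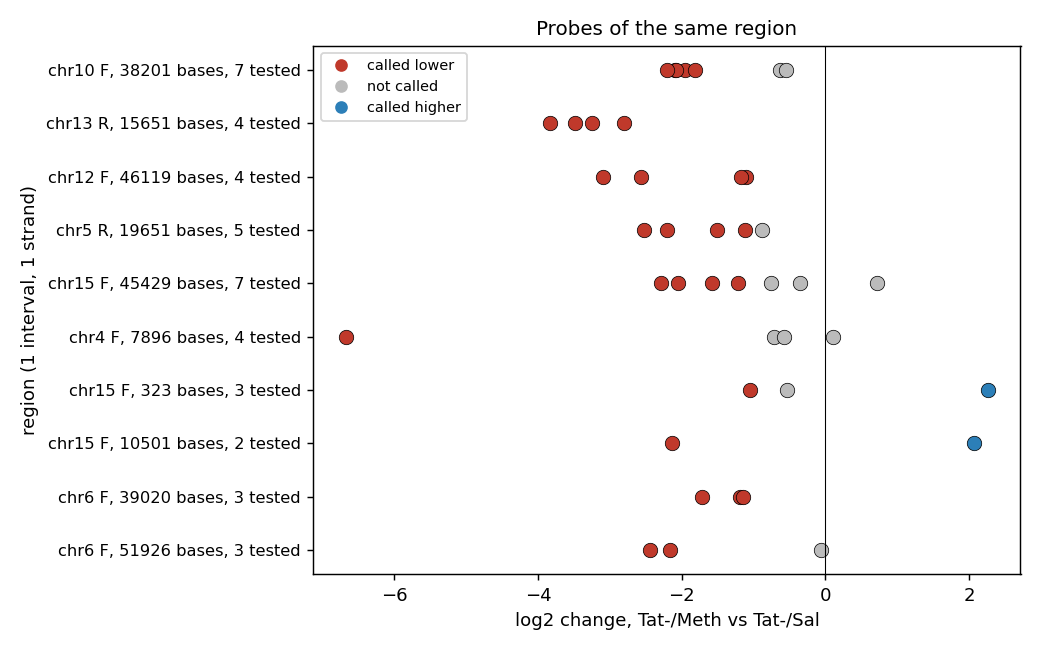
Log2 change, Tat-/Meth against Tat-/Sal, of every tested probe in 10 named regions with several tested probes, one line per region with chromosome, strand, interval length and number of tested probes; red points are called lower, blue called higher and grey not called. Every tested probe of the chr13 and chr12 regions is called lower, the chr4 region has 1 called probe at -6.68 and 3 near 0, and 2 of the chr15 regions hold calls in both directions.

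Both strands of an interval could be compared for 1042 intervals. A probe was detected on all 20 arrays on both strands in 357 (34.3%), on F only in 226, on R only in 233 and on neither in 226. Where each strand had 5 probes, 322 intervals, 48 had at least 3 probes detected on one strand and none on the other, and 5 had at least 3 on both. In 19 of them all 5 were detected on one strand and none on the other. Over these 322 intervals 18.4% of the F probes and 24.0% of the R probes were detected on all arrays.

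Signals of the strands are given side by side and not as a ratio of amounts, since they come from different probes. In the 357 intervals detected on both, the means of F and R over the probes detected on all arrays differed by a median of 1.52 log2 units, and by more than 2 in 141. At one end lay chr14:78924115-78938125, with 17.63 on F and 6.92 on R. Each of these values is that of 1 probe, of 7 on F and 6 on R, the only one detected on all arrays. At the other end chr11:22681800-22707775 had 9.03 on F and 16.85 on R, and chr5:26323150-26357875 had 7.18 and 14.51. The F value of the former is from 1 of 2 probes and the R value of the latter from 1 of 5. At the F-low end lay also chr7:108209996-108216032, at 10.83 and 17.42. The strands of chr17:3103174-3114885 read 7.54 and 7.49 and those of chr5:33773842-33942967 8.35 and 8.41. These values are from 1 of 6 and 3 of 5 probes in the former, and from 1 of 9 and 3 of 9 in the latter. In chr11:117835849-117842574 the strands read 8.27 and 8.28, from 1 of 5 probes on each. They changed by -0.77 and -0.82 in Tat-/Meth against Tat-/Sal. In chr4:56013597-56020622, at 16.86 on F and 7.5 on R, the changes were -1.7 and -0.5. Of 534 intervals with a tested probe on each strand, 116 held a probe called lower on both, 272 on one and 146 on neither.

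Not every difference was stable between mice of a group. Among noncoding probes detected on all arrays the median within-group SD was 0.259 log2 units, and the largest, 1.18, was that of chr17:21801262-21801932 (F). Its Tat+/Sal arrays read 9.8, 12.92 and 12.22 on the 3 arrays with a usable spot, and its Tat+/Meth arrays 11.53, 8.79, 9.15 and 10.44. Tat-/Meth was tighter, at 7.6 to 8.36, and lay below every array of the other groups.

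Long noncoding RNAs that have a gene symbol can be set beside these regions. Of 24 listed genes 13 had a probe, and only the brightest probe of each gene was used. By that probe 12 of them were detected on all 20 arrays and tested. Among these 1 was called in Tat-/Meth against Tat-/Sal, where 11.6% of all tested probes were. That was Pvt1, the noncoding neighbour of Myc, with a change of -1.43 (limma adjusted p = 5.18e-07, n = 5 per group) in the brighter of its 2 probes. Malat1 and Neat1, the RNAs of nuclear speckles and paraspeckles, changed by 0.31 and 0.33, and Dlx6os1, transcribed next to the interneuron gene Dlx6, by 0.54, none of them above 2-fold.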

How the data were processed

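RNA of 20 mouse brain samples was measured on one-colour arrays read with Feature Extraction 10.7.3.1 (protocol GE1_107_Sep09), whose header names build mm9. The deposited scanner files give each spot's intensity after background subtraction by the authors' software (gProcessedSignal) with its detection and outlier marks. The labels and the study's methods name different dyes, scanners and array formats, and the files are those of the labels. The deposited value table holds, for 99.4 to 100% of noncoding probes per array and within 1% or 0.1 units, the same background-subtracted intensity plus a constant per array, on a linear scale and not centred, with column medians of 69.8 to 145, and served as an alternative. Control spots and 4278 outlier spots were left out, and no noncoding probe was saturated. Each array's log2 intensity was scaled to its 75th percentile over all probes. Probes with a mean of at least 6 log2 units in 1 group were fitted with limma 3.58.1 (R 4.3.3), all 4 groups in one fit, each probe on its own, with Benjamini-Hochberg adjustment. The fit was tested on simulated data. The number of arrays limits the precision.

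The regions, gene lists and tests were chosen with earlier results of these data known. Regions are named by rule: per comparison and direction the 6 called probes with the largest change whose groups do not overlap (3 for the difference of differences), the 8 brightest probes, 3 strand pairs at each end and 3 with the closest signals, the 4 regions with most calls per comparison, and the probe with the largest within-group SD. No mm9 genome or annotation was used here, so neither sequences nor gene names are given for the intervals, and whether they lie outside genes was not checked. Alternatives were other scalings, backgrounds, filters, thresholds, blocks and tests, and leaving out each array. All columns read belonged to a labelled sample.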

Additional observations from a re-analysis of the deposited data

Results flagged for a closer look

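Within a group, an array was singled out where its gap to the nearest other array, divided by the range of the group, exceeded Dixon's 95% critical value. This was so in 12 of 131 groups of 4 or 5 arrays looked at (9.16%). Chance gives about 1 in 20 for independent groups. The groups here share arrays, and their probes were named by rule from the same data, so that rate is no fair measure for them. Tat-/Meth replicate 5 had 59.1% of noncoding probes detected, a lower quartile of 5.24, a median of 6.42 and an upper quartile of 7.42 log2 units, all above the rest of its group. Tat+/Sal replicate 3 had a high median of 4.69, and Tat+/Meth replicate 5 a low upper quartile of 6.7. Single probes with such an array were chr15:100908323-100908645 (F) at 8.51 and chr9:24292762-24307658 (R) at 7.72, both in Tat-/Meth replicate 5. The others were chr1:92177032-92180487 (F) at 4.28 in Tat+/Sal replicate 1, chr1:88398169-88398354 (F) at 10.85 in Tat+/Meth replicate 1, chr3:50934868-50939918 (R) at 6.57 in Tat+/Meth replicate 3 and chr11:22510175-22522025 (F) at 7.74 in Tat+/Sal replicate 3. Each of these was the highest of its group.

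The Meth change differed between Tat+ and Tat- mice, by the difference of differences in limma, for 1498 noncoding probes, among them 21 named here. The log2 difference was positive for chr4:128727332-128735227 (F) at 7.32, chr19:9060613-9060851 (F) at 5.74, chr14:28231577-28242027 (F) at 5.45 and chr2:33500594-33501874 (F) at 5.26. It was 5.18 for chr2:132079092-132087069 (R), 4.88 for chr6:67155508-67216941 (R), 4.81 for chr9:41488229-41545481 (R), 4.23 for chr19:29969050-29980675 (F) and 4.19 for chr13:34821764-34822230 (R). Smaller values were 3.11 for chr3:50934868-50939918 (R), 1.66 for chr2:177314875-177387775 (F), 1.07 for chr17:39982023-39983277 (F) and 1.06 for chr6:83368261-83407280 (F). It was negative for chr11:22510175-22522025 (F) at -4.34, chr9:24292762-24307658 (R) at -2.2, chr1:134867906-134885481 (F) at -2.16, chr15:100908323-100908645 (F) at -2.13 and chr15:101084597-101095097 (F) at -2.0. It was -1.92 for chr1:92177032-92180487 (F), and -1.79 both for chr13:61837025-61851225 (R) and for chr7:91558475-91733625 (R). In 7 of these probes, on chr4, chr19:29969050-29980675, chr3, chr11, chr9:24292762-24307658, chr1:92177032-92180487 and chr1:134867906-134885481, at least 1 group had no spot well above background, so their values have no exact size. Slide 1 held the whole Tat-/Meth group, so slide and group cannot be told apart in these values.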

How the results depend on the processing

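The call counts moved with the processing and the thresholds. Normexp with quantile normalization, which changes background and scaling together, let 15467 noncoding probes through the filter. Of these it called 623 in Tat-/Meth against Tat-/Sal, 641 in Tat+/Meth against Tat-/Meth and 654 in the difference of differences. Over all probes that setting called 3.11, 3.22 and 3.46%, nearer to the noncoding share than in the main fit. By adjusted p alone the counts in the same order were 3080, 3160 and 2332. These were 54.0, 55.4 and 40.9% of the noncoding probes, against 50.3, 53.5 and 37% of all probes. At adjusted p below 0.01 and 3-fold the counts were 708, 751 and 762, against 5.59, 5.89 and 5.96% of all probes. Among probes detected on all 20 arrays (chosen after seeing the data) they were 746, 784 and 834, against 7.53, 7.95 and 8.7%. No filter gave 2264 in the first, against 10.1% of all probes, and no scaling 2328 in the third, against 19.9%. Over all probes the median change in the first was 0.1, 0.22 with median scaling and -0.33 unscaled. In the first, median scaling gave 154 higher and 1208 lower calls, normexp with quantile normalization 30 and 593, no filter 381 and 1883, and no scaling 19 and 2110, against 81 and 1370. In the same order 10.9, 3.11, 10.1 and 17.7% of all probes were called in either direction, against 11.6%. The 5 calls of Tat+/Sal against Tat-/Sal became 0 with normexp and quantile normalization, with the deposited value table and without a filter. With slide as a fixed term and at the stricter thresholds they also became 0. Of all probes at most 0.00539% were called in these settings. There was 1 call with median scaling, 2 with quantile normalization, 3 with a detection filter and 3 by the methods' t-test after Benjamini-Hochberg. Of all probes 0.0127, 0.0223, 0.0333 and 0.0444% were called there. The t-test before adjustment gave 14, slide as a random term 21 and adjusted p alone 24, against 0.111, 0.152 and 0.708% of all probes. The methods' t-test without adjustment gave 6 and 9 in Tat+/Meth against Tat+/Sal and against Tat-/Sal, against 0.102 and 0.0984% of all probes. In the first comparison the t-test gave 1323 with and 1400 without adjustment, against 10.8 and 11.3% of all probes. Leaving out 1 array gave 1389 to 1616 calls in Tat-/Meth against Tat-/Sal, and the fits with these counts called 11.3 and 12.8% of all probes. In Tat+/Meth against Tat-/Meth it gave 1432 to 1684, against 11.6 and 13.5%. In Tat+/Sal against Tat-/Sal it gave 0 to 7, against 0 and 0.076%, and in the difference of differences 1407 to 1729, against 11.8 and 14.2%. It gave 0 throughout in Tat+/Meth against Tat+/Sal and against Tat-/Sal, where at most 0.0032% of all probes were called. With the replicate number as a block the first 4 counts were 1443, 1490, 4 and 1495, against 11.6, 12, 0.0476 and 12.4% of all probes. The last 2 counts stayed at 0. Same-numbered arrays deviated together with correlations of -0.16 to 0.34, with a median of 0.04 against -0.03 for other pairs. Of the 20 arrays 10 correlated best with one of their own number, more than an even spread over the numbers would give. The numbers were not taken as pairs in the main fit, and whether they mark something shared was not tested. A fixed slide term could not be fitted for comparisons with Tat-/Meth, and the t-test and the fit on 2 groups give no difference of differences. With the looser mark (signal positive and significant) 67.0, 70.0, 67.7 and 63.3% of noncoding probes were detected in Tat-/Meth, Tat-/Sal, Tat+/Meth and Tat+/Sal. Strand pairs detected on both strands were 610 and on neither 74 with detection on 10 arrays, and on neither 147 outside Tat-/Meth and 145 by a mean of 6 log2 units. By adjusted p alone 45.9% of the other probes of a region were lower beside a lower probe, and 19.2% beside one that was not. Of 523 values of named probes under settings with all arrays, 470 kept their call, 53 lost it and 0 reversed, and of 692 with 1 array left out 631, 61 and 0.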
